A study of Arabidopsis thaliana with 18 samples.

Results

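H3K9ac peaks that touch no annotated gene were the rare exception in Arabidopsis seedlings: 1263 of the 74546 H3K9ac peaks in 6 deposited peak lists lay wholly between genes. A peak was counted as intergenic where it overlapped no gene of any biotype by 1 bp or more, on chromosomes 1 to 5, in the RefSeq annotation of TAIR10.1. Merging them over the libraries gave 745 intergenic loci. The choice used position only and no read count. Widths and overlaps with other lists depend in part on position, so the rule itself bears on those comparisons.

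H3K9ac and H3K14ac are acetyl groups on lysines 9 and 14 of histone H3. Such acetylation loosens chromatin and is known to mark the promoters and first exons of transcribed genes. Histone deacetylases remove both marks. HDA9 is one of these enzymes in Arabidopsis, and POWERDRESS (PWR) is a SANT-domain protein known to bind it. Intergenic acetylation is often found at distal regulatory elements, at unannotated transcripts and near transposon-derived genes, and none of these was assigned to the peaks here.

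The material was whole seedlings, 10 days old, on MS-agar plates at 23 °C with 16 h light and 8 h dark, after cold treatment of the seeds. The 3 genotypes were Col (WT), hda9-1 (the HDA9 mutant) and pwr-2 (the POWERDRESS mutant), each given as 1 allele, and the labels name no treatment. H3K9ac had 2 libraries per genotype, called biological replicates in the series' design, and H3K14ac had 1. The labels do not say whether replicates came from separate plantings, so p-values measure only the spread between these samples, which may be technical. Whole seedlings mix many cell types, and a mark in fewer cells cannot be told apart from less of it per cell. H3K9ac peaks covered 5 of 6 leaf photosynthesis genes in all 6 libraries and the remaining one, CAB1, in 3, while 4 of 4 seed storage and oil body genes had a peak in 0. The intergenic locus chr1:10476201-10477800 lay 84 bp from CAB1. Its peak was intergenic in hda9-1 replicate 1 and both pwr-2 libraries, at 1.39 to 1.55 times the median density of the library's H3K9ac peaks.

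The libraries differed in depth and in how the peaks fell. Reads in peaks came to 1.95 and 2.22 M in WT, 12.3 and 18.2 M in hda9-1, and in pwr-2 3.76 and 8.87 M. The 3 H3K14ac lists held 0.668, 0.875 and 1.09 M in WT, hda9-1 and pwr-2. The first replicate of pwr-2 stood apart, with 96 of the 745 loci holding an H3K9ac peak in that library and no other, against 16 to 33 for each of the other 5 libraries.

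The number of intergenic peaks varied as much between replicates as between genotypes. WT had 255 and 171, hda9-1 had 172 and 149, and pwr-2 had 316 and 200. In each genotype the first replicate had the more intergenic peaks but the fewer peaks in all. As a share of all H3K9ac peaks, intergenic peaks made up 2.19% (95% Wilson interval 1.94 to 2.47) and 1.35% (1.16 to 1.57) in WT. The shares were 1.36% (1.18 to 1.58) and 1.17% (0.997 to 1.37) in hda9-1, and in pwr-2 2.63% (2.36 to 2.94) and 1.55% (1.35 to 1.78). These intervals cover counting error only.

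**Figure D1:**
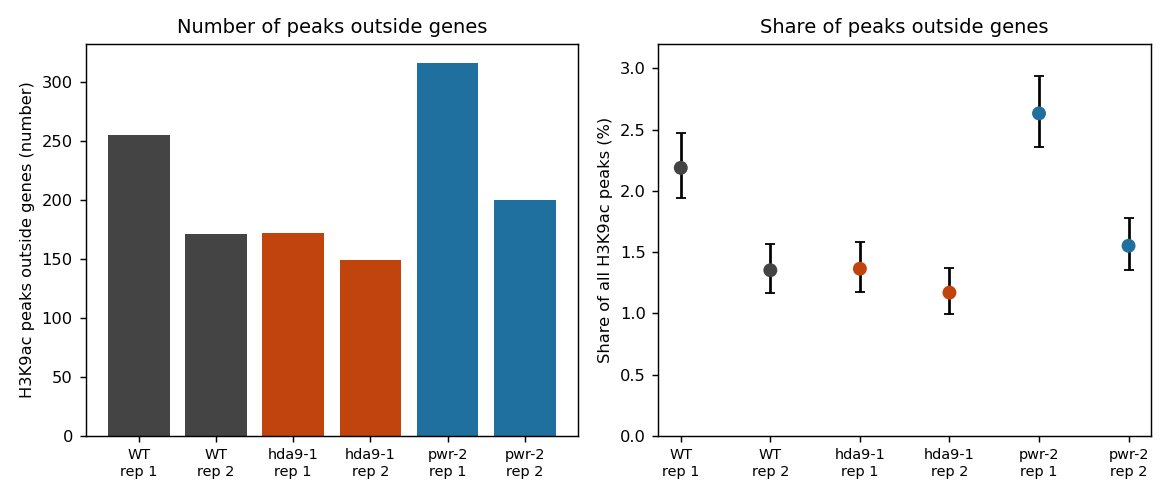
Left, the number of H3K9ac peaks outside genes in each library (bars from 0). Right, their share of all H3K9ac peaks of the library in percent (points), with 95% Wilson intervals for counting error (bars). The first replicate is the higher one in WT, hda9-1 and pwr-2 alike, and hda9-1 replicate 2 is the lowest of the 6 at 149 peaks.

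By genotype, the number was 213 ± 59.4 in WT, 160.5 ± 16.3 in hda9-1 and 258 ± 82.0 in pwr-2 (SD, n = 2 each). The difference of the means was -52.5 peaks for hda9-1 minus WT (exact permutation test, two-sided, p = 0.667) and 45 peaks for pwr-2 minus WT (exact p = 0.667), and in both comparisons the libraries overlapped in number, for hda9-1 and WT by 172 against 171 peaks. For hda9-1 minus pwr-2 it was -97.5 peaks, with both hda9-1 libraries lower than both pwr-2 libraries (exact p = 0.333, the smallest that 2 against 2 allows). The separation of hda9-1 from pwr-2, and the lack of one from WT, depended on the peak set. Among peaks above the lower quartile of read density, hda9-1 minus pwr-2 was -13 peaks with overlapping libraries (39 and 54 against 82 and 37, exact p = 1). At equal numbers of peaks per library it was -85.5 (111 and 106 against 304 and 84, exact p = 1). Against WT, both hda9-1 libraries were below both WT libraries (exact p = 0.333) under both of these settings, with peaks at least 200 bp from any gene (147 and 127 against 219 and 157), and with protein-coding genes alone (409 and 400 against 475 and 436). The shares differed by -0.503, 0.322 and -0.826 percentage points in the same 3 comparisons, with the same p-values, and all 6 tests had an adjusted exact p of 0.667. Without the first replicate of pwr-2, pwr-2 minus WT turned to -13 peaks and -0.218 points. Without WT replicate 1, pwr-2 minus WT was 87 peaks and hda9-1 minus WT -10.5 peaks. No difference between genotypes passed 0.05, which this design cannot reach.

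Intergenic peaks covered 489.6 and 301.6 kb in WT, 316.4 and 238.6 kb in hda9-1, and in pwr-2 673.2 and 384.8 kb. They held 1.73% and 0.983% of all reads in peaks in WT, 0.855% and 0.639% in hda9-1, and in pwr-2 2.07% and 1.04%. In all 6 libraries their share of reads was thus below their share of peaks.

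Intergenic peaks held fewer reads per kb than genic ones, at the median, in every library. Median read density was 68.3 and 73.1 reads per kb in WT, against 88.8 and 98.0 for peaks that overlap a gene. It was 329 and 497.5 in hda9-1 (genic 452.5 and 628) and 116 and 238 in pwr-2 (genic 155.0 and 349). Density differs between libraries with depth, so the 2 classes were compared within each library, where the intergenic value was 68.2% to 79.2% of the genic one. On the log2 scale the mean within-library difference was -0.43, lower in 6 of 6 libraries (exact sign-flip permutation test, two-sided, p = 0.03125, the smallest that 6 libraries allow; adjusted p = 0.0391 over 5 such tests). Many regions recur in several libraries, so the 6 values are not fully independent. Above the lower quartile of read density the difference was -0.12, and with protein-coding genes alone -0.26.

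A difference in median width between the classes was not detected over all peaks. The rule itself favours narrow peaks, since a wide one reaches a gene. Median intergenic widths were 1800 and 1600 bp in WT, 1400 and 1200 bp in hda9-1, and 1800 bp in both pwr-2 libraries. Genic medians were 1400 bp, except 1600 bp in hda9-1 replicate 2. The mean difference of 167 bp had an exact sign-flip permutation p of 0.375, and its sign turned under 4 of the alternatives given in the closing section. Among peaks above the lower quartile of read density it was -500 bp (exact sign-flip permutation p = 0.03125, not adjusted). Very wide intergenic peaks of 5000 bp or more numbered 4 and 3 in WT, 5 and 7 in hda9-1, and in pwr-2 22 and 8. The widest single peaks spanned 6200 to 9800 bp across the 6 libraries.

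Between 14 and 65 intergenic peaks per library ended within 200 bp of a gene, with median widths of 1100 to 1800 bp. Between 38 and 81 genic peaks per library overlapped genes by less than 200 bp, with median widths of 1100 to 1900 bp. Median densities just inside against just outside were 71.4 against 70.0 and 80.6 against 93.3 reads per kb in WT. They were 340 against 382 and 483 against 531 in hda9-1, while pwr-2 had 115 against 120 and 258 against 250. The value just inside was thus the lower one in 4 of 6 libraries.

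Intergenic peaks lay in unusually long gaps but mostly close to a gene. The loci sat in gaps between neighbouring genes with a median of 4.90 kb and a maximum of 19.2 kb, whereas the 31615 gaps of the annotation had a median of 0.755 kb. The median distance from peak to nearest gene was 839 and 1019 bp in WT, 707.5 and 763 bp in hda9-1, and in pwr-2 536 and 760.5 bp. No intergenic peak was more than 5717 bp from a gene. The rule favours long gaps, since a peak can fit only where there is room, so the gap lengths are a description.

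The nearest gene was protein-coding for 546 of the 745 loci (73.3%). The annotation holds 27444 protein-coding genes among its 37899, so this share and the counts below are a description. A lncRNA gene was nearest for 87 loci, a pseudogene for 70, a transcribed pseudogene for 17 and a miRNA gene for 11. Both flanking genes were protein-coding for 429 loci (57.6%). Chromosomes 1 to 5 held 199, 131, 141, 115 and 159 of the loci. The annotation used gives no strand, so no locus can be called upstream or downstream of its neighbour.

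Gene-poor surroundings held a larger share of the intergenic peaks than of the genic ones. Gene density was measured as the percentage of bases in protein-coding genes within 500 kb on each side of a peak. The median was 59.3% and 60.1% in WT, 58.6% and 60.3% in hda9-1, and in pwr-2 59.5% and 60.5%, against 65.1% to 65.3% for genic peaks. The mean within-library difference was -5.48 points, lower in 6 of 6 libraries. A peak that must touch no gene falls more easily where genes are sparse, so these values are a description. Below 25% gene density lay 33 and 26 intergenic peaks in WT (12.9% and 15.2%), 36 and 27 in hda9-1 (20.9% and 18.1%), and 43 and 23 in pwr-2 (13.6% and 11.5%). For genic peaks the same share was 2.26% to 2.40%.

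Most intergenic H3K9ac peaks had no H3K14ac peak over them. The H3K14ac lists hold fewer reads, so H3K14ac below the peak caller's threshold was not detectable. Of the intergenic peaks, 22 and 22 in WT overlapped an H3K14ac peak of the same genotype (8.63% and 12.9%). The numbers were 31 and 32 in hda9-1 (18.0% and 21.5%) and 26 and 31 in pwr-2 (8.23% and 15.5%). Genic H3K9ac peaks overlapped H3K14ac in 74.5% and 73.3% of cases in WT, 85.7% and 84.8% in hda9-1, and in pwr-2 84.2% and 84.8%. The mean within-library difference was -67.1 points, lower in 6 of 6 libraries (exact sign-flip permutation p = 0.03125, adjusted p = 0.0391). Only 0.404% to 0.431% of H3K14ac peaks lay outside genes, so a peak that must touch no gene meets them less easily. The part of the rule in this difference was not tested. With both classes restricted to peaks of at most 1000 bp, the difference was -50.4 points. It was -37.8 points among peaks above the lower quartile of read density and -42.7 points with protein-coding genes alone as the rule.

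By genotype, the share with H3K14ac was 10.7% ± 3.0 in WT, 19.7% ± 2.44 in hda9-1 and 11.9% ± 5.14 in pwr-2 (SD, n = 2 each). Both hda9-1 values lay above both WT values, as was also so for genic peaks (85.7% and 84.8% against 74.5% and 73.3%). The intergenic difference was not tested. The hda9-1 H3K14ac list was also longer (13122 peaks against 11141 in WT), and the hda9-1 intergenic peaks were narrower, and the part of either in the difference was not tested. Each genotype has 1 H3K14ac list, so these shares carry no replicate check on the H3K14ac side.

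**Figure D2:**
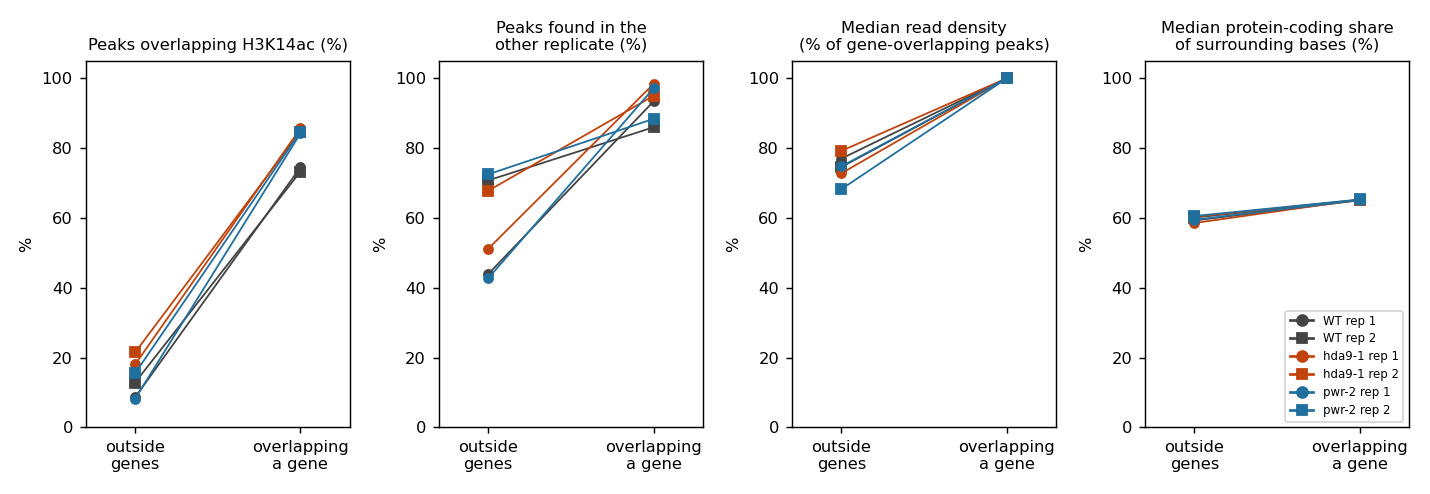
Intergenic H3K9ac peaks (left in each panel) against gene-overlapping peaks (right) within each library, 1 line per library. Panels from left to right show the share overlapping H3K14ac of the same genotype, the share found in the other replicate, the median read density as a percentage of the genic median, and the median share of protein-coding bases within 500 kb. All 6 lines rise in every panel, most steeply for H3K14ac (8.23% to 21.5% against 73.3% to 85.7%).

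Overlap with H3K14ac was most frequent among the narrowest intergenic peaks. Among intergenic peaks of 200 to 600 bp, 42.5% to 53.6% overlapped H3K14ac across the 6 libraries. The share was 10.5% to 23.9% at 800 to 1200 bp, 2.70% to 9.09% at 1400 to 2400 bp, and 0% to 4.76% at 2600 bp and more. Of the 61 widest-class peaks in WT replicate 1, 0 overlapped H3K14ac. Genic peaks showed no such decline: their share was 75.2% to 87.9% in the narrowest class and 72.8% to 84.1% in the widest. A wider peak has more room to meet another peak by position.

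**Figure D3:**
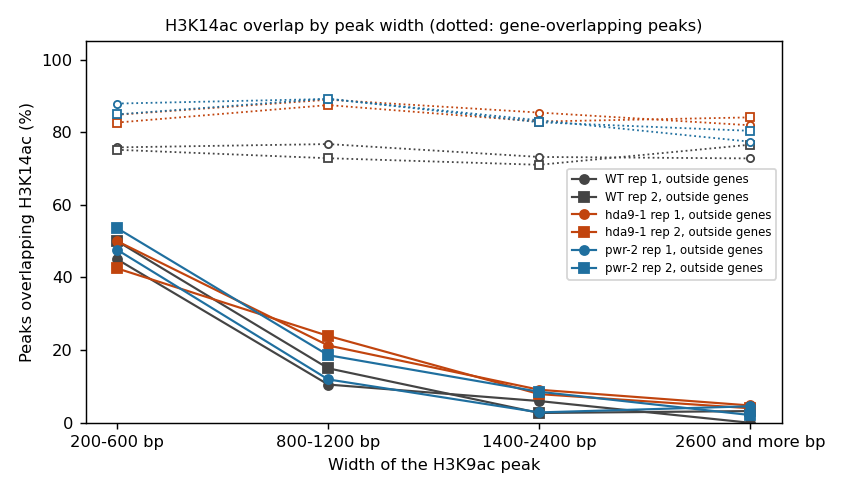
Share of H3K9ac peaks overlapping an H3K14ac peak of the same genotype (vertical axis, percent) by width of the H3K9ac peak (horizontal axis, 4 classes), for intergenic peaks (filled symbols, solid lines) and gene-overlapping peaks (open symbols, dotted lines) in each library. Intergenic peaks drop from 42.5% to 53.6% in the narrowest class to at most 4.76% in the widest, while gene-overlapping peaks stay at 71.0% or more.

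Intergenic peaks with H3K14ac also differed in density and place. Their median density relative to the median of all H3K9ac peaks of the library was 1.14 and 1.17 in WT, 0.942 and 0.981 in hda9-1, and in pwr-2 1.01 and 0.942. Without H3K14ac it was 0.766 and 0.724 in WT, 0.712 and 0.754 in hda9-1, and in pwr-2 0.746 and 0.667. Between 29.0% and 36.4% of those with H3K14ac lay below 25% gene density, against 7.10% to 19.1% of those without. The peaks with H3K14ac were also narrower, with median widths of 600 to 800 bp against 1400 to 1800 bp without. The part of width in the density difference was not tested. These values rest on 22 to 32 peaks with H3K14ac per library and were not tested.

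H3K14ac itself had few intergenic peaks: 48 of 11141 in WT, 53 of 13122 in hda9-1 and 54 of 12791 in pwr-2, or 0.404% to 0.431%. Their median width was 600 bp in each list. Unlike for H3K9ac, their density exceeded that of genic peaks of the same mark, at 112.5% to 119% of the genic median. Merged, they made 98 loci, of which 58 overlapped an intergenic H3K9ac peak in some library, 20 overlapped only gene-overlapping H3K9ac peaks, and 20 overlapped no H3K9ac peak.

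Intergenic peaks recurred less between replicates than genic ones. The other replicate had an H3K9ac peak of any kind over 43.9% and 70.8% of the intergenic peaks in WT, 51.2% and 67.8% in hda9-1, and in pwr-2 42.7% and 72.5%. For genic peaks these shares were 93.4% and 86.0% in WT, 98.4% and 95% in hda9-1, and in pwr-2 97.1% and 88.4%. The mean within-library difference was -34.9 points, lower in 6 of 6 libraries (exact sign-flip permutation p = 0.03125, adjusted p = 0.0391). The 2 values of a genotype share their libraries. Most peaks of the other replicate overlap a gene, so a peak that must touch no gene meets them less easily, and the part of the rule was not tested. Among peaks above the lower quartile of read density the difference was -29.8 points with an exact p of 0.0625.

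Over all libraries, 485 of the 745 loci (65.1%) had an intergenic peak in 1 library, 139 in 2, 52 in 3, 33 in 4, 19 in 5 and 17 in all 6. With gene-overlapping peaks counted as well, 211 of the 745 loci (28.3%) had an H3K9ac peak in 1 library and 131 (17.6%) in all 6. At 114 of the loci with a peak in all 6, the peak overlapped a gene in at least 1 library. For comparison, all H3K9ac peaks were merged into 12753 regions. Of the 341 merged regions that touched no gene, 61.9% had a peak in 1 library and 4.99% in all 6. Of the 12412 that touched a gene, 7.30% had a peak in 1 library and 67.0% in all 6. A region merged over more libraries has more chances to touch a gene, so part of this contrast follows from the merging. Recurrence of intergenic peaks and H3K14ac went together. H3K14ac in some genotype was present at 10 of the 17 loci with an intergenic peak in all 6 libraries (58.8%). It was present at 29 of the 485 with an intergenic peak in 1 library (5.98%). Of those 17 loci, 9 lay below 25% gene density (52.9%), against 37 of 485 (7.63%). Neither difference was tested. To count in all 6 libraries a locus needs a peak that touches no gene in each, which is easier where genes are sparse. The part of the rule in the gene density contrast was not tested.

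**Figure D4:**
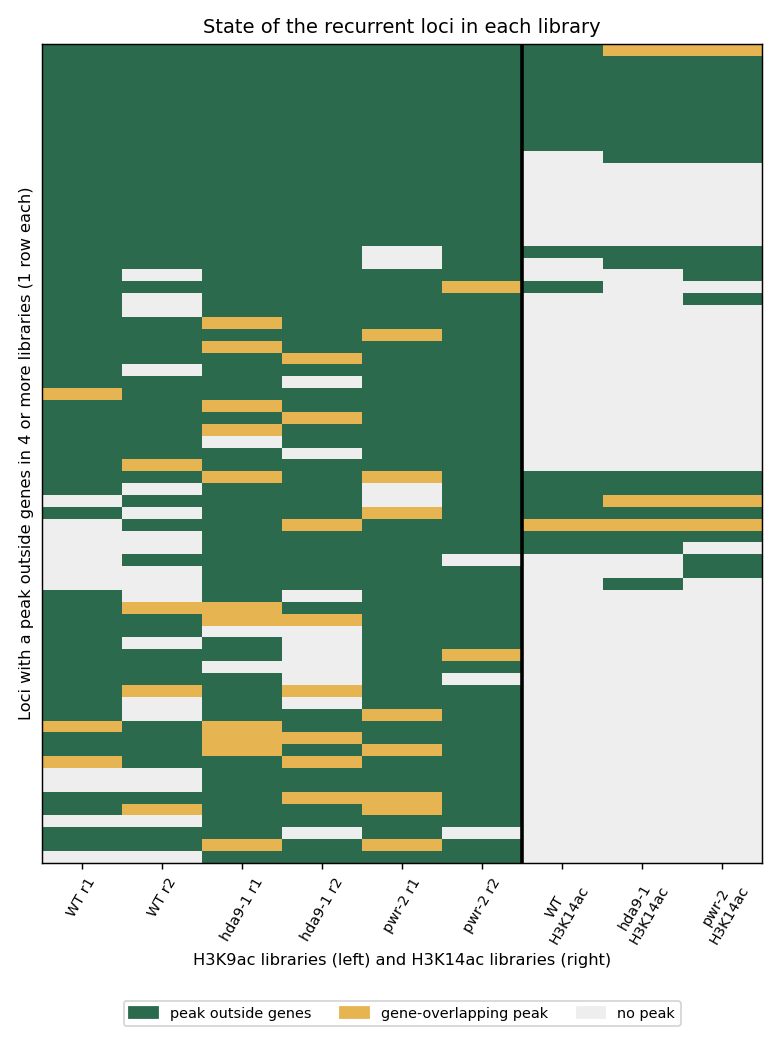
State of the 69 loci with an intergenic H3K9ac peak in 4 or more libraries (1 row each), in the 6 H3K9ac libraries (left of the black line) and the 3 H3K14ac libraries (right). Green is a peak outside genes, yellow a peak that overlaps a gene, grey no peak. The top 17 rows are green in all 6 H3K9ac libraries, and H3K14ac is present in 10 of them.

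The widest locus present in all 6 libraries was chr1:11722601-11733200 (TAIR10), between NRT1.5, a nitrate transporter that loads the xylem, and AT1G32460. Its peaks covered 8400 and 8600 bp in WT, 9800 bp in both hda9-1 libraries, and 8600 and 9000 bp in pwr-2. They held 586 and 573 reads in WT, 3391 and 4654 in hda9-1, and in pwr-2 1076 and 2282. Scaled by library, its log2 change was -0.01 ± 0.13 in hda9-1 and -0.01 ± 0.13 in pwr-2 against WT (edgeR estimate ± SE), and no H3K14ac peak lay there.

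A second broad locus, chr1:1878001-1882000, lay between AT1G06148 and ORA59, an ERF transcription factor of jasmonate and ethylene defence responses. Its peaks covered 3600 and 2400 bp in WT, 3600 bp in both hda9-1 libraries and 3800 bp in both pwr-2 libraries. Broad loci of this kind also stood at chr2:2734401-2739000 between 2 pseudogenes (3400 to 4200 bp), at chr5:15659001-15662400 between AT5G39110 and AT5G39120 (2400 to 3200 bp), and at chr3:16438401-16440600 between AT3G44970 and AT3G44980 (1400 to 2200 bp). None of these 4 had H3K14ac in any genotype.

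Other recurrent loci were narrow and dense. At chr3:12559601-12560000, between pseudogene AT3G30834 and lncRNA gene AT3G06115, the peak was 400 bp in all 6 libraries. Its density was 1.84 and 1.64 times the library median in WT, 1.84 and 1.73 times in hda9-1, and in pwr-2 2.03 and 1.79 times, the highest mean of the 17 loci, and it had no H3K14ac. At chr3:14317401-14318200, 1766 bp from AT3G42160 and 2742 bp from DAYSLEEPER, a gene derived from a hAT transposase, the peaks were 600 bp in 5 libraries and 800 bp in pwr-2 replicate 1. That locus had an intergenic H3K14ac peak in all 3 genotypes, which covered 600 bp of the locus in each. An intergenic H3K14ac peak in all 3 genotypes also lay at chr4:5036801-5037400, between 2 pseudogenes. It covered 400, 600 and 600 bp of the locus in WT, hda9-1 and pwr-2. At chr2:6180801-6181400, next to AT2G14520, such a peak covered 400, 400 and 600 bp in the same order. Both loci are 600 bp wide, and H3K14ac beyond their ends is not in these values.

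Some recurrent loci changed width between libraries. At chr4:5358401-5360400, between 2 lncRNA genes, the H3K9ac peak was 600 bp in both WT libraries, 2000 and 600 bp in hda9-1 and 1200 bp in both pwr-2 libraries. H3K14ac covered 600 bp of that locus in all 3 genotypes. At chr5:6475801-6478200, next to FAF3, a gene known for control of shoot meristem size, the widths were 400 bp in both WT libraries, 1200 and 600 bp in hda9-1 and 800 and 2000 bp in pwr-2. The locus chr3:12456201-12457600, 959 bp from the misc_RNA gene AT3G00620 and 4644 bp from ERD5, the proline dehydrogenase gene, had 800 bp in 5 libraries and 1400 bp in pwr-2 replicate 1. At chr3:11096001-11098400, next to pseudogene AT3G29120, the peaks covered 1800 and 1600 bp in WT, 2400 and 2200 bp in hda9-1, and in pwr-2 1400 and 1600 bp, with H3K14ac in all 3 genotypes.

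Among loci with H3K14ac in all 3 genotypes, 2 of the 5 widest alternated between classes. At chr5:13101801-13103400, between the transcribed pseudogene AT5G34852 and the pseudogene MUG8, the peak was intergenic in both WT libraries, hda9-1 replicate 2 and pwr-2 replicate 2, and reached a gene in the other 2. At chr3:16586401-16588200, next to AT3G45252, it was intergenic in WT replicate 2, hda9-1 replicate 1 and pwr-2 replicate 2, and reached a gene in the other 3. All 36 loci with H3K14ac in the 3 genotypes had a median gap between genes of 2.23 kb, shorter than the 5.0 kb of the 662 loci without H3K14ac.

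Many WT intergenic peaks overlapped, by 1 bp or more, a gene-overlapping peak but no intergenic peak of a mutant library, and the shares in the reverse direction were lower. Of the WT intergenic peaks, 36.1% to 49.1% met a gene-overlapping peak in this way in an hda9-1 library (4 library pairs, mean 42.8%) and 34.1% to 46.2% in a pwr-2 library (mean 41.5%). Between the 2 WT libraries this share was 14.9% and 28.7%. Of the hda9-1 intergenic peaks, 9.30% to 12.1% met a gene-overlapping peak in WT, and of the pwr-2 ones 9.18% to 13.9%. The ranges from WT to mutant and from mutant to WT did not overlap, but the pairs share libraries, so no test was made.

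The gene-overlapping peaks that met WT intergenic peaks had median widths of 6600 to 6800 bp in hda9-1 and 6200 to 6500 bp in pwr-2, while the WT peaks they met had medians of 1600 to 1800 bp. Between the WT libraries such peaks had medians of 3600 and 4400 bp. Gene-overlapping peaks of 4200 bp or more were also more common in the mutants overall: 13.6% and 14.8% of genic peaks in hda9-1 and 11.6% and 10.9% in pwr-2, against 8.59% and 7.03% in WT. Both mutants had more reads in peaks than WT, and the part of depth in these shares was not tested. Of mutant intergenic peaks, 53.0% to 65.7% (hda9-1) and 49.0% to 72.5% (pwr-2) had no peak at all in a WT library.

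**Figure D5:**
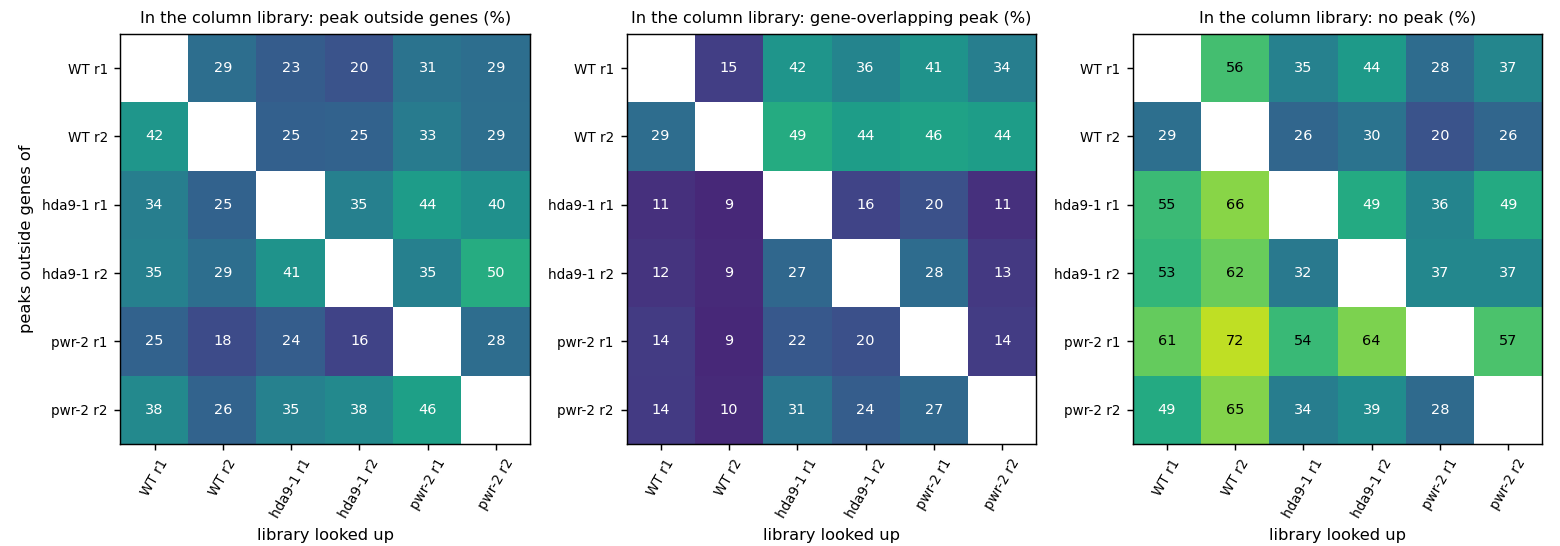
For the intergenic H3K9ac peaks of each library (rows), the percentage that overlaps an intergenic peak (left), only a gene-overlapping peak (middle) or no peak (right) in each other library (columns). In the middle panel the 8 cells from WT rows to mutant columns run from 34.1% to 49.1%, and the 8 cells from mutant rows to WT columns from 9.18% to 13.9%.

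Loci gained or lost in a mutant were few. A locus counted as gained where both mutant libraries had an intergenic peak and neither WT library had any H3K9ac peak there, and as lost in the reverse case. In hda9-1, 19 of the 745 loci were gained (2.55%) and 8 lost (1.07%). In pwr-2, 29 were gained (3.89%) and 5 lost (0.671%). Over all 12753 merged H3K9ac regions, 5.99% were gained and 0.619% lost in hda9-1, and in pwr-2 3.18% gained and 0.706% lost. Among the 341 merged regions outside genes, the unit that matches this background, 4.69% were gained and 2.05% lost in hda9-1, and in pwr-2 6.74% gained and 1.17% lost. The gained share outside genes was thus below the background in hda9-1 and above it in pwr-2, on 16 and 23 regions, and the lost shares, on 7 and 4 regions, were above it. These differences from the background were not tested. Both WT libraries had fewer reads in peaks (1.95 and 2.22 M) than any mutant library (3.76 to 18.2 M). Depth and genotype thus go together here, and the part of depth in the gained and lost loci was not tested.

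These counts rest on pairs of libraries and move with each one. Without hda9-1 replicate 1 or 2, 63 or 82 loci counted as gained in hda9-1, and without pwr-2 replicate 1 or 2, 84 or 170 in pwr-2. Without WT replicate 1 or 2, 34 or 76 loci counted as lost in hda9-1, and 29 or 52 in pwr-2. Gains in pwr-2 numbered 44 without WT replicate 1. Losses in hda9-1 numbered 15 without hda9-1 replicate 1, and losses in pwr-2 9 without pwr-2 replicate 1. Part of each rise follows from asking for fewer libraries.

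The mutants share the WT libraries, so overlap between their lists is not independent. Of the loci, 8 were gained in both mutants (42.1% of the hda9-1 list and 27.6% of the pwr-2 list) and 3 were lost in both (37.5% and 60% of the lists). Loci gained in hda9-1 were narrow (median of the mean widths 700 bp, range 200 to 3500 bp), and those lost were wide (2550 bp, range 1500 to 3400 bp). In pwr-2 the medians were 1800 bp for gained and 2100 bp for lost loci. Of the 19 loci gained in hda9-1, 7 had H3K14ac in some genotype, 4 of these in WT, where H3K9ac had no peak. A library without a peak can still hold reads, which the lists do not give. Of the lost loci of either mutant, 0 had H3K14ac.

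The widest locus gained in hda9-1, chr1:13316201-13320400, lay between lncRNA genes AT1G06933 and AT1G06937. It had no peak in WT, peaks of 4000 and 3000 bp in hda9-1, and in pwr-2 3600 bp and no peak. Gained in both mutants was chr1:27045001-27048200, 1974 bp from lncRNA gene AT1G09273 and 5829 bp from SUC1, a sucrose and proton symporter, with 3200 and 1200 bp in hda9-1 and 800 and 1200 bp in pwr-2. So was chr3:16076401-16079000, 431 bp from DPBF2, a bZIP factor of seed maturation, with 1400 and 1200 bp in hda9-1 and 2200 and 2600 bp in pwr-2. The other 2 of the 5 widest gained in hda9-1 lay at chr3:19481601-19483600 and chr2:3534201-3535600, with widths of 1200 to 2000 bp.

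In pwr-2 the widest gained locus, chr3:8301801-8307800, lay 967 bp from AT3G23245 and 1408 bp from MYB15, a MYB factor of cold and defence responses. It had no peak in WT, 6000 and 3800 bp in pwr-2, and in hda9-1 a gene-overlapping peak in replicate 1 and no peak in replicate 2. At chr3:4825801-4830400, 885 bp from NCED3, an enzyme at the rate-limiting step of abscisic acid synthesis, pwr-2 had 3200 and 4400 bp and WT had no peak. Both hda9-1 libraries had a gene-overlapping peak over that locus, so it was not counted as gained there. The remaining 3 of the 5 widest were chr1:15879401-15884600, chr3:16421401-16425600 and chr5:6315001-6318400, and in the last, hda9-1 had no peak in either library.

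The widest lost locus was shared by the mutants: chr4:10106801-10111800, 1963 bp from AT4G18280 and 2993 bp from KAT2, an inward potassium channel of guard cells, with 3600 and 3200 bp in WT and no peak in any of the 4 mutant libraries. These WT peaks held 207 and 201 reads, at 57.5 and 62.8 reads per kb, below the WT intergenic medians. Also lost in both were chr1:12702801-12705600, 1423 bp from pseudogene AT1G34660 and 3489 bp from MYB93, a regulator of lateral root development, with 2600 and 1600 bp in WT, and chr2:3166801-3168800, 1107 bp from HA6, a plasma membrane proton ATPase, with 1200 and 1800 bp.

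Other losses were counted in 1 mutant. At chr5:21623801-21631000, between CRF3, a cytokinin response factor, and UBC10, a ubiquitin-conjugating enzyme, WT had 6200 and 600 bp, hda9-1 no peak and pwr-2 2000 bp in both libraries. At chr3:10410001-10414000, 23 bp from SWEET4, a sugar transporter, WT had 3400 and 1600 bp, hda9-1 no peak, and pwr-2 3800 bp in replicate 1 and no peak in replicate 2. The locus chr5:10488401-10491600, 393 bp from pseudogene AT5G28515 and 4327 bp from BGLU24, a beta-glucosidase, had 2400 and 2800 bp in WT, no peak in hda9-1, and in pwr-2 1800 bp and no peak. At chr2:15372001-15379600 WT had 4600 and 800 bp, hda9-1 no peak, and pwr-2 6200 and 4200 bp. Lost in pwr-2 but not in hda9-1 were chr3:16254201-16258200 and chr2:10996801-10998600.

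Read counts could be compared at the 17 intergenic regions with a peak in all 6 libraries, fitted together with the other regions of that kind, 8332 in all. With edgeR's quasi-likelihood test and Benjamini-Hochberg adjustment at 0.05, 0 of 17 were called in hda9-1 against WT, in pwr-2 against WT and between the mutants, and percent called over all regions was 0 in each. At an unadjusted p under 0.05, 2 of the 17 passed in hda9-1 and 2 in pwr-2, where 12.2% and 14.7% of all regions did, and 0 between the mutants, where 3.89% did. DESeq2 called 0, 1 and 0 of the 17 in these 3 comparisons, against 1.85%, 2.5% and 0.336% of all regions it gave an adjusted p, and it left 6 of the 17 without one in pwr-2 against WT. The median log2 change of the 17 was -0.04 in hda9-1 and 0.0032 in pwr-2 against WT, beside -0.0084 and -0.0021 for all regions. For hda9-1 against pwr-2 it was -0.13, beside -0.0032 for all regions. Of the 17, 4 were higher and 13 lower, while 49.5% of all regions were higher. The regions share the same libraries, and this lean was not tested.

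The region with the smallest p in both mutants was chr5:1515401-1518000, between AT5G05130 and AT5G05140, with peaks of 1000 and 1200 bp in WT and 2600 bp in all 4 mutant libraries. It held 97 and 94 reads in WT, 997 and 1300 in hda9-1, and in pwr-2 342 and 673. Scaled by library, the log2 change was 0.79 ± 0.21 in hda9-1 (edgeR adjusted p = 0.292) and 0.89 ± 0.21 in pwr-2 (edgeR adjusted p = 0.235). DESeq2 gave an adjusted p of 0.0632 in hda9-1 and 0.0240 in pwr-2, the 1 of the 17 called there. Per covered bp the edgeR estimates turned to -0.23 and -0.26 (adjusted p = 0.706 and 0.613). H3K14ac peaks lay there in all 3 genotypes, outside genes in WT and overlapping a gene in hda9-1 and pwr-2. They covered 600, 800 and 600 bp of the locus in WT, hda9-1 and pwr-2.

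The second smallest p belonged to chr3:14811201-14812800, between pseudogenes AT3G42727 and AT3G42717. Its log2 change was -0.95 ± 0.30 in hda9-1 (edgeR adjusted p = 0.329) and -0.94 ± 0.31 in pwr-2 (adjusted p = 0.282), and per covered bp 0.86 and 0.74. The next were chr3:11096001-11098400 in hda9-1 (0.34 ± 0.18, adjusted p = 0.490) and chr5:6475801-6478200 in pwr-2 (0.64 ± 0.30, adjusted p = 0.381). Per covered bp these were 0.15 and -1.0, the latter with its direction turned (adjusted p = 0.771 and 0.238).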

How the data were processed

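Positions came from 9 deposited peak lists (6 H3K9ac, 3 H3K14ac) out of 18 samples, and 9 input samples were not used here. Bowtie, SICER and TAIR10 are named in the submitters' processing notes. Versions, threshold and duplicate handling were not given in the sources used here. In every deposited list, made per library by the authors, positions move in steps of 200 bp and each peak has a whole number. With no header to name it, the deposited number was taken as the authors' unnormalized read count per peak, since it grows with width. Shearing aimed at 200 bp and gel selection kept 300 to 400 bp, per the labels' protocols. Titles with "hdac" carry the genotype label hda9-1.

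The 37899 RefSeq genes of TAIR10.1 on 5 chromosomes (27444 protein-coding) set the rule. In 9 of 9 lists, peaks outside genes were fewest with no shift of the peaks. Positions are printed on TAIR10, counted from 1. The members, lists and tests were chosen with earlier results of these data known. Loci are named by fixed size rules: the 10 widest and 5 densest in all 6 libraries, the 5 widest gained or lost per mutant, the 5 widest with H3K14ac in 3 genotypes, and the 3 smallest edgeR p-values per mutant.

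Genotypes were compared with exact permutation tests over libraries and peak classes with exact sign-flip tests within libraries, all two-sided. Counts were tested with edgeR 4.0.16 (quasi-likelihood, TMM, Benjamini-Hochberg, all 6 libraries in 1 fit; biological coefficient of variation 0.184), with DESeq2 1.42.0 as alternative, in R 4.3.3 and Python 3.11.15. The edgeR code was tested on simulated data.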

Additional observations from a re-analysis of the deposited data

How the results depend on the processing

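Of 210 recomputed values over 19 alternative settings of 18 results, 155 kept their direction and side of the threshold (counts within 1.5 times), 25 kept direction but missed the threshold, 21 moved and 9 reversed; the causes were not tested beyond what a setting's construction shows. The median width difference reversed to -66.7 bp with protein-coding genes only and to -500 bp above the lower quartile of read density (exact permutation p = 0.03125). It was -133 bp with the same number of peaks per library and -83.3 bp at up to 1000 bp width. Above that quartile, pwr-2 minus WT became -9.5 peaks and -0.118 points, the replicate overlap difference -29.8 points (exact permutation p = 0.0625), gained and lost loci 9 and 5 in hda9-1, with 9 and 3 in pwr-2. With protein-coding genes only, 57 loci were gained in hda9-1, and 56 gained and 9 lost in pwr-2; with the same number of peaks, 8 and 0 in pwr-2. DESeq2 called 1 region in pwr-2.

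Class differences that moved by over 1.5 times kept an exact permutation p of 0.03125: H3K14ac -37.8 points above the quartile and -42.7 with protein-coding genes only, other replicate -22.1 points with protein-coding genes only, and log2 density -0.12 and -0.26 in the same order of settings as H3K14ac.

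Leaving out 1 library at a time, hda9-1 minus WT ran from -94.5 to -10.5 peaks and -0.922 to -0.0851 points, pwr-2 minus WT from -13 to 103 peaks and -0.218 to 0.863 points (-0.0959 points without WT replicate 2), and hda9-1 minus pwr-2 from -155.5 to -39.5 peaks. The class differences ran from -68.4 to -65.3 points for H3K14ac, -36.2 to -33.7 for the other replicate and -0.45 to -0.40 for log2 density. For these, exact permutation p rose to 0.0625 or 0.125, the smallest that 5 or 4 libraries allow. The gene density difference ran from -5.63 to -5.23 points. It is a description only, since a peak that must touch no gene falls more easily where genes are sparse. Gained loci ran from 22 to 82 in hda9-1 and 35 to 170 in pwr-2, lost loci from 10 to 76 and 7 to 52.

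Replicate numbers are shared across genotypes, but same-numbered libraries deviated together with correlations of only 0.08, 0.17 and 0.16 over regions, and 2 numbers cannot establish a pairing. With the replicate block, hda9-1 minus WT was -83 and -22 peaks and pwr-2 minus WT 61 and 29 in replicates 1 and 2 (exact permutation p = 0.5, the smallest the block allows), the mean values being -52.5 and 45, and edgeR with the block called 0 intergenic regions.

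The lists hold no count where no peak was called, so signal below the caller's threshold was not detectable. The edgeR comparison used regions with a peak in all 6 libraries; with 0 for missing peaks, over 12753 regions, it called 0 of 341 outside genes.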
